A study of Mus musculus with 4 samples.

Results

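Keratin-associated protein (Krtap) genes encode the small proteins that surround the keratin filaments of the hair shaft, and they were followed here by subfamily in mouse dermal white adipose tissue (dWAT), the fat layer around the lower ends of hair follicles (HFs). Members are the listed genes whose mouse symbol starts with Krtap, which gave 56 of 22913 genes in 27 subfamilies, a subfamily being the members that share the number after Krtap. RNA sequencing covered dWAT of C57BL/6 mice in 4 groups with 1 library each: OTD (old mice, telogen), YTD (young mice, telogen), OAD (old mice, anagen) and YAD (young mice, anagen). Anagen had been induced by hair plucking, so the anagen groups differ from the telogen groups in depilation as well as in hair cycle phase. The paper reports that old mice entered anagen later after depilation than young mice, and it gives no day of harvest. Whether OAD and YAD were at the same stage of anagen was not tested, so age and stage cannot be told apart between them. Old mice were 18 months and young mice 2 months by the treatment protocol, but among the age labels YTD carries 18 months and OAD carries 2 months, and the groups here follow the sample titles. The study's methods state 20 mice per group, and the number of mice behind each library is not given in the sources used here.

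With 1 library per group there is no spread between replicates, no test and no p-value, and every difference is one between single libraries. Values are FPKM as deposited (fragments per length of gene and per depth of library), a difference is that of log2(FPKM + 1), which understates the difference of low genes, and a member is called higher or lower when this is at least 1 in size. Depth was estimated from the lowest values of long features at roughly 20400000 to 23100000 fragments per library. Mitochondrially encoded genes took 14.4% of the FPKM total in YAD, 18.3% in OAD, 44.7% in YTD and 52.7% in OTD, so results were also computed under other scalings. The microdissected tissue held RNA of several cell types, and in such bulk samples fewer cells of a type and less RNA per cell cannot be told apart. The paper describes scraping dWAT off the lower ends of HFs, and it names hair bulbs as unavoidably mixed into the tissue. How much hair bulb each library held was not measured, so Krtap RNA here is not attributed to fat cells.

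The hair shaft is built by matrix cells of the anagen follicle as they move up and harden, and it consists of a cortex, a medulla and an outer cuticle. Hair keratins form the filaments, and Krtap proteins, crosslinked through cysteine or rich in glycine and tyrosine, form the matrix between them. The genes lie in clusters, nearly all have 1 exon, and they are sorted by composition into high sulphur, ultrahigh sulphur and high glycine-tyrosine proteins. In human hair, transcripts of KRTAP1, KRTAP2, KRTAP3, KRTAP4 and KRTAP9 genes are known from the cortex and those of KRTAP5, KRTAP10 and KRTAP12 genes from the cuticle. In telogen the lower follicle has regressed and no new shaft is made.

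The members differ in the composition of their coding sequence, and the stretches below show the composition classes to which the results refer. Each is the run of 30 codons richest in the marked residues, taken from the GENCODE annotation on GRCm38 and written from 5′ to 3′ on the coding strand, with codons of cysteine in capitals for the sulphur-rich members and codons of glycine and tyrosine in capitals for the others. Krtap4-2 (minus strand, chr11:99634644-99634733) and Krtap5-2 (minus strand, chr7:142174958-142175047) stand for cysteine-rich members that differed in opposite directions with age in anagen. Krtap5-3 (plus strand, chr7:142202361-142202450) is the member with the lowest value in OAD relative to YAD. Krtap3-1 (minus strand, chr11:99566491-99566580) stands for the high sulphur class, and Krtap22-2 (minus strand, chr16:89010598-89010687) and Krtap8-1 (minus strand, chr16:89487770-89487859) are among the 3 members with the highest levels.
Krtap4-2: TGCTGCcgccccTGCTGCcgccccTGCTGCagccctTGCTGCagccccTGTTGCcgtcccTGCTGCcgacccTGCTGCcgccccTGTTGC
Krtap5-2: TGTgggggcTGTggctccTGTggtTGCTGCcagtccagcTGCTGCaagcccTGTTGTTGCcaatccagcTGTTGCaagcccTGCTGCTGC
Krtap5-3: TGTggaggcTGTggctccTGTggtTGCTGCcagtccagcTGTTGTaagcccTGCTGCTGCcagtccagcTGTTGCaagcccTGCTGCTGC
Krtap3-1: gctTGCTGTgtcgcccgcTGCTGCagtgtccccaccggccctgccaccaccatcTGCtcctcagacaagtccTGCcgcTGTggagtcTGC
Krtap22-2: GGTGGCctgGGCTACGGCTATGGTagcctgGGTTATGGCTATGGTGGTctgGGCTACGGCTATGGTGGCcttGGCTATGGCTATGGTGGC
Krtap8-1: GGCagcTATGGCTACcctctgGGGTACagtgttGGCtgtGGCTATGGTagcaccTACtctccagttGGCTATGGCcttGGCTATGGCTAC

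In these runs cysteine takes 16 of 30 codons in Krtap4-2, 15 in Krtap5-2, 15 in Krtap5-3 and 8 in Krtap3-1. Glycine and tyrosine take 25 of 30 codons in Krtap22-2 and 18 in Krtap8-1. Over the whole coding sequence a member was classed as high glycine-tyrosine when glycine plus tyrosine reached 35% of codons, as ultrahigh sulphur when cysteine was over 30%, and as high sulphur otherwise. This put 16 members in the ultrahigh sulphur class, 21 in the high sulphur class and 15 in the high glycine-tyrosine class, while 3 members met both criteria and 1, Krtap19-9a, had no matching coding sequence. The 3 that met both were Krtap5-2, Krtap5-3 and Krtap28-13, with cysteine at 34.6%, 35.1% and 42.8% of codons. Krtap7-1 fell in the high sulphur class by this rule, with 29.9% glycine plus tyrosine.

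Krtap RNA was scarce in the dissected dWAT of telogen and abundant in that of anagen, at both ages. How much of it came from hair bulbs was not tested. All members summed to 424 FPKM in OTD and 790.4 in YTD, and to 93283 in OAD and 71035 in YAD. These sums were 0.0339%, 0.0634%, 11.5% and 10.2% of all summed FPKM. At least 1 FPKM was reached by 39 members in OTD and 44 in YTD and by 55 in each anagen library, and at least 1000 FPKM by 24 members in OAD and 19 in YAD. Most members were thus detected in every library, and 49 were over 0 in all 4.

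**Figure D1:**
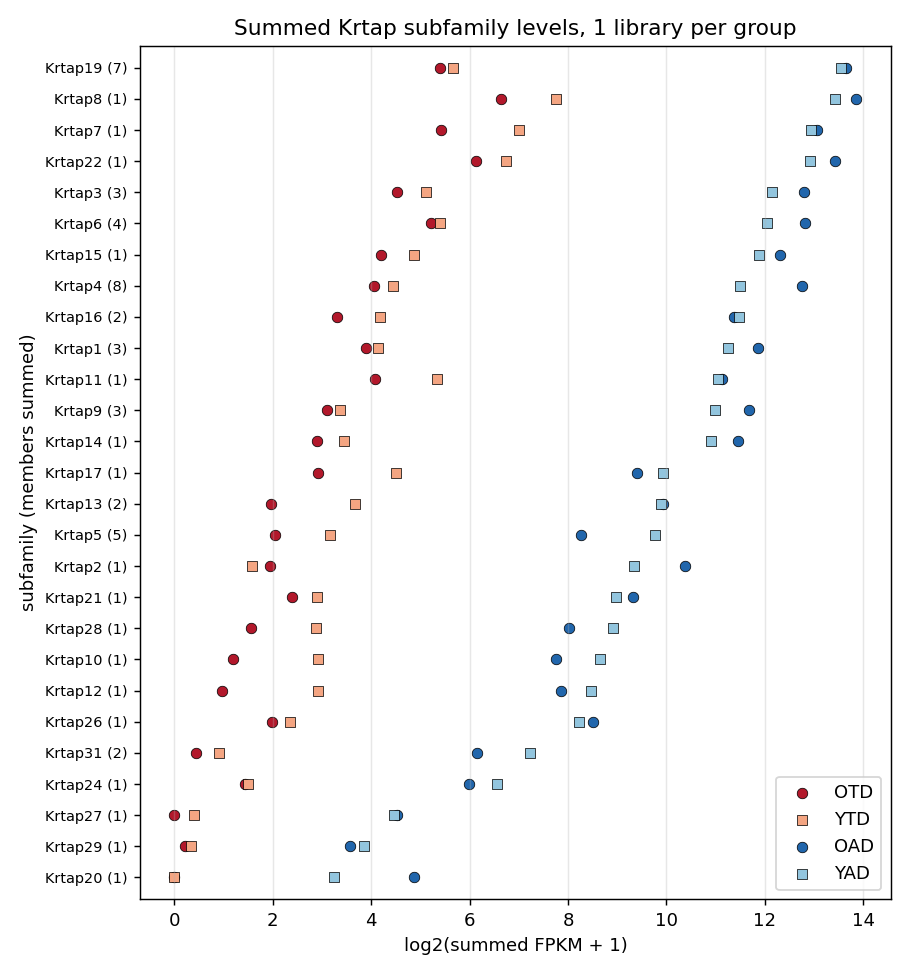
Summed level of each Krtap subfamily in the 4 libraries, as log2(summed FPKM + 1) on the horizontal axis, with the number of members summed in parentheses. Each point is 1 library, and for all 27 subfamilies both anagen points lie to the right of both telogen points.

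The phase comparisons ask which members were higher in growing than in resting skin of the same age. In young mice all 56 members were higher in YAD than in YTD, 55 of them were called, and the median difference was 6.40 on the log2(FPKM + 1) scale, against 0.02 over all 17622 genes compared. Of all genes, 16.1% were called higher in this comparison. In old mice 55 of 55 members compared were higher in OAD than in OTD, all 55 were called, and the median was 7.54, against 0.01 over 17712 genes, of which 16.1% were called higher. Krtap13 was not called in young mice and not compared in old mice, being listed at 0 in OTD, YTD and OAD and at 0.17 FPKM in YAD, under the 0.231 FPKM that 3 fragments give there. All 27 subfamily sums were called higher in anagen at both ages. Their differences ran from 3.23 for Krtap20 to 7.88 for Krtap19 in young mice and from 3.35 for Krtap29 to 8.69 for Krtap4 in old mice. Higher levels in anagen were not particular to the members. All 15 hair shaft keratins were called higher at both ages, with medians of 6.48 in young and 7.82 in old mice. All 10 genes of the inner root sheath and companion layer were called higher too, with medians of 5.12 and 6.18.

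The subfamilies with the highest sums lie on chromosome 16, and most are rich in glycine and tyrosine. Krtap8-1, the only member of its subfamily, had 98.5 FPKM in OTD and 216 in YTD, and 14868 in OAD and 11018 in YAD. Krtap22-2 had 69.4, 105, 11006 and 7739 FPKM in the same order, and Krtap7-1 had 41.8, 127, 8517 and 7839. These 3 genes had the highest levels of all members in each of the 4 libraries. The 7 members of Krtap19 summed to 41.2 FPKM in OTD and 49.4 in YTD against 12818 in OAD and 11909 in YAD, led by Krtap19-9b with 16.3, 16.1, 4144 and 2554. Krtap8 alone made up 23.2% of the Krtap sum in OTD and 27.3% in YTD but 15.9% in OAD and 15.5% in YAD. For Krtap19 the order was the opposite, with 9.71% and 6.25% in the telogen libraries and 13.7% and 16.8% in the anagen libraries.

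Further subfamilies of chromosome 16 had intermediate to low levels. Krtap15 had 17.4 FPKM in OTD and 28.3 in YTD against 5050 in OAD and 3751 in YAD, and Krtap14 had 6.42, 9.94, 2809 and 1923. The listed spans of Krtap14 and Krtap15 overlap on opposite strands, and whether counting used the strand is not given in the sources used here, so their reads may not have been separated. The 4 members of Krtap6 summed to 36.4 FPKM in OTD and 41.3 in YTD against 7226 in OAD and 4205 in YAD, led by Krtap6-5 with 12.8, 13.0, 3227 and 1778. Krtap16-3, Krtap11-1, Krtap13-1 and Krtap21-1 reached 2631, 2242, 978 and 635 FPKM in the anagen library where each was higher. Krtap26-1, Krtap24-1 and Krtap27-1 reached 363, 93.6 and 22.1 FPKM. Krtap20-2 was listed at 0 in both telogen libraries and had 28.4 FPKM in OAD and 8.41 in YAD, or an estimated 120.1 and 33.6 fragments.

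Cysteine-rich subfamilies of chromosome 11 followed. The 3 members of Krtap3 summed to 22.2 FPKM in OTD and 33.8 in YTD against 7068 in OAD and 4532 in YAD, and Krtap3-1 alone had 12.1, 21.8, 4569 and 3013. The 8 members of Krtap4, ultrahigh sulphur proteins, summed to 15.6, 20.6, 6871 and 2899 FPKM, with 3.22, 5.74, 1307 and 614 for Krtap4-1. Krtap1-5 had 9.79 FPKM in OTD and 8.82 in YTD against 2077 in OAD and 1622 in YAD. The anagen level of Krtap4-1 was 107 times its telogen level in young mice and 406 times in old mice. Krtap9-3 had 4.89, 7.38, 2572 and 1712 FPKM in OTD, YTD, OAD and YAD, and Krtap2-4 had 2.84, 1.99, 1323 and 646. At the far end of the cluster Krtap17-1 had 6.56, 21.8, 672 and 973 FPKM, Krtap31-1 0.356, 0.569, 47.3 and 65.2, and Krtap29-1 0.168, 0.271, 10.9 and 13.4.

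Levels between genes are uncertain where the genes are short or copied. The listed lengths equal the coding length for all 55 members with a matched coding sequence, run from 168 to 1509 bases, are under 300 bases for 15 members, and whether fragments in untranslated parts were counted is not given in the sources used here. Of the members, 11 share at least 50% of the 50-base words of their coding sequence with another annotated gene. Krtap3-2 and Krtap3-3 have identical coding sequences, those of Krtap31-1 and Krtap31-2 are 98.9% identical, and pairs within Krtap4 range from 60.1% to 95.3%. How reads of such copies were split is not given in the sources used here. For copies with the same number the sum over a subfamily is therefore the firmer value, and single members are uncertain. The sum leaves out similar genes with other symbols. Krtap2-4, the only Krtap2 member, shares 81.6% of its words with another annotated gene. The genes beside it, Gm11938, Gm11937 and Gm11562, share 70.6%, 85.6% and 88.7%. In OAD they were higher than in YAD by 0.81, 0.33 and 0.70, against 1.03 for Krtap2-4. The Krtap16 sum joins 2 genes that are 14.7% identical in coding sequence.

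Zeros among the members are not spread evenly over libraries. In OTD 7 members were listed at 0, in YTD 4, in OAD 1 and in YAD 0. None of 72 ribosomal protein genes was at 0 in any library, but these were not matched to the members in level or length. Krtap9-5, Krtap13, Krtap19-9a and Krtap20-2 were at 0 in both telogen libraries. Of these, Krtap19-9a had 1195 FPKM in OAD and 1319 in YAD, while its neighbour Krtap19-9b was detected in all 4 libraries. Krtap19-4 was listed at 0 in OTD but had 11.2 FPKM in YTD, an estimated 58.1 fragments, and 1242 FPKM in OAD and 2124 in YAD.

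In telogen the old library held less Krtap RNA than the young one, at low levels in both. Of 52 members compared, 42 were lower and 10 higher in OTD than in YTD, and the median difference was -0.37, against -0.03 over all 17230 genes. No member was called higher and 12 were called lower, where 1.67% of all genes were called higher and 1.93% lower. By subfamily, 25 sums were lower, 9 of them called, and Krtap2 alone was higher, by 0.36. Rescaled to the same total in every library without the mitochondrial genes, 17 members were higher and 35 lower, and the sums of Krtap6 and Krtap24 turned to higher.

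Members called lower in telogen lie on chromosomes 1, 7, 10, 11 and 16. Krtap12-1 had 0.943 FPKM in OTD against 6.59 in YTD, Krtap10-4 1.27 against 6.56, and Krtap16-1 0.561 against 3.80. Krtap13-1 had 2.93 FPKM in OTD and 11.8 in YTD, a difference of -1.71, and Krtap19-4 differed by -3.61, a value that depends on the pseudocount since OTD is listed at 0. The abundant Krtap8-1 and Krtap7-1 were called lower as well, at 0.457 and 0.329 times their YTD level. The members higher in OTD all differed by less than 1. The 5 with the largest differences included Krtap19-1 with 0.76 (2.75 FPKM against 1.22), Krtap6-3 with 0.66 and Krtap19-3 with 0.25 (11.3 against 9.36). For Krtap6-3 the values were 1.53 and 0.594 FPKM, of which the YTD value is under the 0.846 FPKM that 3 fragments give there. Krtap2-4 and Krtap9-1, with 2.68 FPKM in OTD and 1.88 in YTD for the latter, were higher by 0.36 and 0.35.

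In anagen the age comparison split the family. Of 56 members, 34 were higher and 22 lower in OAD than in YAD, and the median difference was 0.25, against 0.00 over all 17613 genes. Called members numbered 12 higher and 5 lower, that is 17 of 56, where 0.727% of all genes were called higher and 0.454% lower. Under rescaling to the same total in every library (TPM), the median of expressed genes was -0.21. The same comparison then gave 29 members higher and 27 lower, with 6 called higher and 8 called lower. Shares over all genes were not computed in TPM. By subfamily, 18 sums were higher and 9 lower in OAD as deposited. Called were Krtap20, Krtap4 and Krtap2, higher by 1.64, 1.24 and 1.03, and Krtap5 and Krtap31, lower with differences of -1.51 and -1.06. In TPM Krtap2 was no longer called, at 0.80, Krtap4 stood at 1.01, and Krtap10 and Krtap28 were called lower as well, at -1.13 and -1.12.

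**Figure D2:**
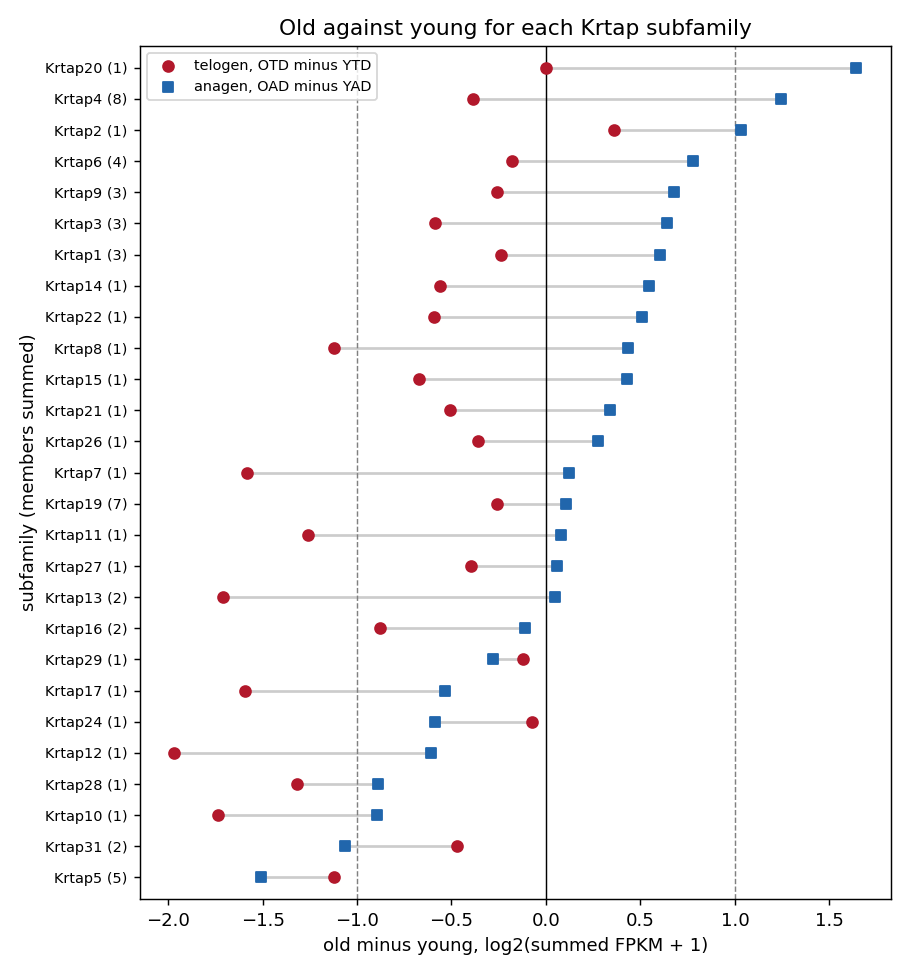
Old minus young difference of log2(summed FPKM + 1) for each subfamily in telogen (circles) and in anagen (squares), with the number of members in parentheses and dashed lines at a difference of 1 in size. In anagen Krtap20, Krtap4 and Krtap2 lie beyond 1 on the right and Krtap5 and Krtap31 beyond 1 on the left, while in telogen 25 sums lie to the left of 0.

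On chromosomes 7, 10 and 11 the direction in anagen followed position. On chromosome 11 (GRCm38), the 17 members from Krtap3-3 to Krtap9-1, between 99550130 and 99874432, were all higher in OAD, by 0.36 to 1.5 with a median of 1.09. The next 6 members, from Krtap31-1 to Krtap17-1, between 99907920 and 99993994, were all lower in OAD, with differences of -0.28 to -1.85 and a median of -0.55. The limit between these stretches was set after the values were seen, and it lies between Krtap9-1 and Krtap31-1. Genes with other symbols that lie between the members and were detected showed the same directions: 14 of 14 in the former stretch were higher, with a median of 1.24, and the 1 in the latter, Gm11565, was lower, with a difference of -0.49. Their coding sequences are cysteine-rich too (18.2% to 39.1% of codons), and all but Gm11939 share 50-base words with another annotated gene, so they are no independent measurement. In TPM the 17 and the 6 members kept these directions, with medians of 0.86 and -0.78, and 13 of the 14 other genes remained higher.

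**Figure D3:**
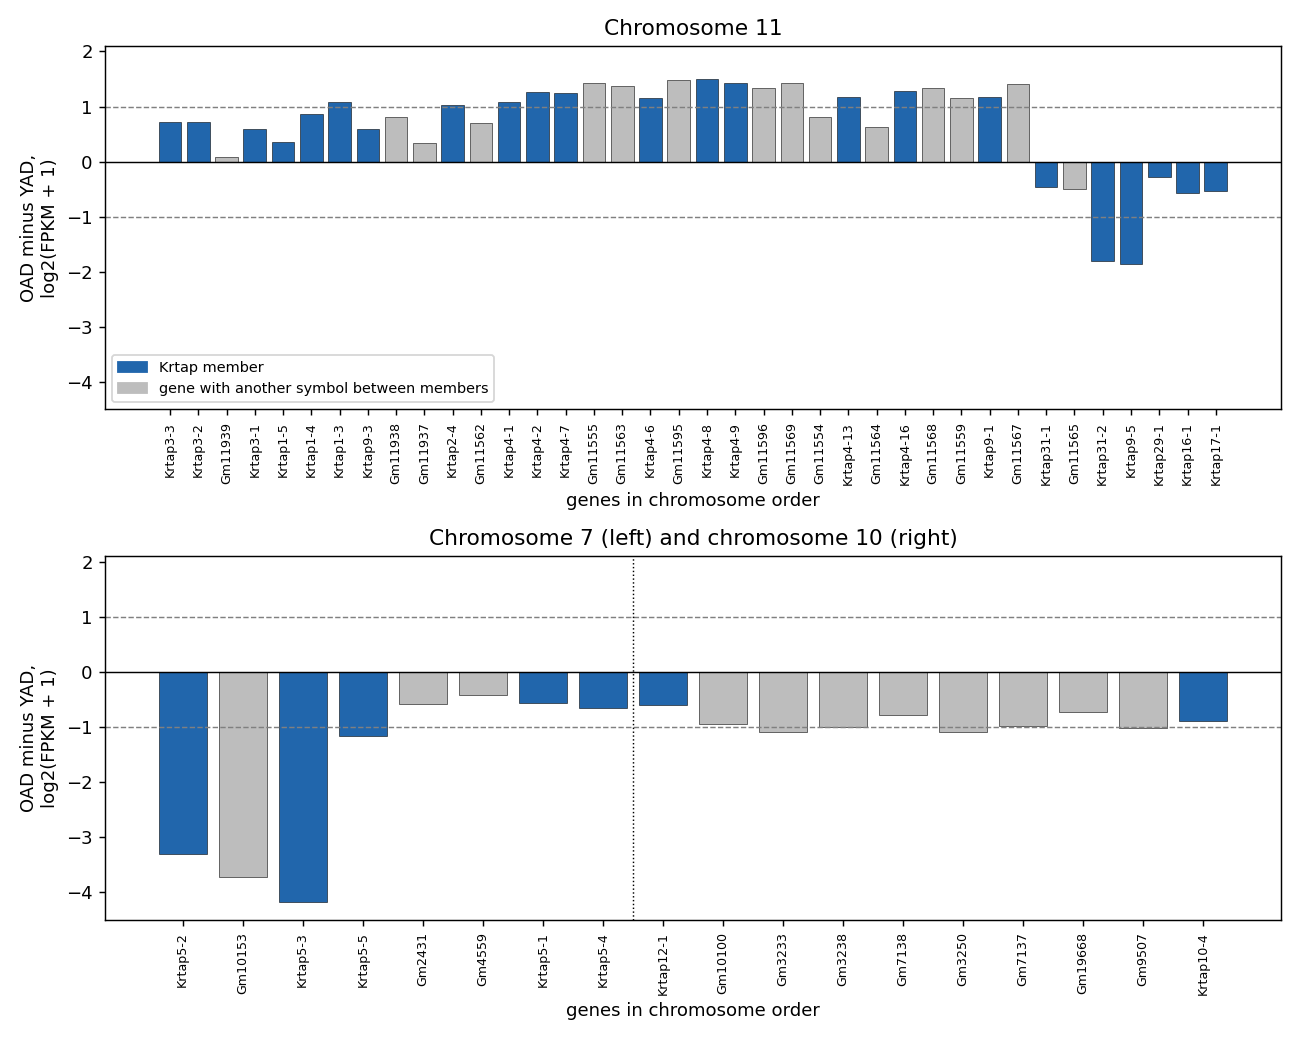
OAD minus YAD difference of log2(FPKM + 1) for Krtap members (blue) and for genes with other symbols between them (grey), in chromosome order on chromosome 11 (upper panel) and on chromosomes 7 and 10 (lower panel), with dashed lines at 1 in size. On chromosome 11 the bars are above 0 up to Gm11567 and below 0 from Krtap31-1 on, and on chromosomes 7 and 10 all bars are below 0.

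Of the 12 members called higher in OAD, 8 belong to Krtap4. All 8 of its members were called, from Krtap4-1 with 1307 FPKM in OAD and 614 in YAD to Krtap4-8 with 832 and 294, but in TPM the calls of Krtap4-1, Krtap4-6 and Krtap4-13 ended and 5 of the 8 remained. Krtap4-8, Krtap4-9, Krtap4-16 and Krtap4-2 differed by 1.5, 1.42, 1.28 and 1.26, and Krtap4-9 had 479.6 FPKM in OAD and 179 in YAD. Krtap4-16, with 956 FPKM in OAD and 394 in YAD, shares none of the 50-base words of its coding sequence with another annotated gene. The share of Krtap4 in the Krtap sum was 7.37% in OAD and 4.08% in YAD, and 3.68% in OTD and 2.61% in YTD. Krtap1-3, Krtap2-4 and Krtap9-1 of the same stretch were called as deposited but not in TPM, while Krtap3-1, Krtap1-5 and Krtap9-3 were higher in OAD by 0.60, 0.36 and 0.59.

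Krtap5, whose 5 members lie on chromosome 7 between 142174535 and 142304503, was lower in OAD throughout. Krtap5-3 had 0.153 FPKM in OTD and 0.357 in YTD against 2.79 in OAD and 67.6 in YAD, so that the OAD level was 0.0413 times the YAD level. Krtap5-2 had 0.685, 3.17, 29.8 and 306 FPKM in the same order, and its OAD level was 0.0976 times that in YAD. These values rest on an estimated 69.0 and 1580 fragments for Krtap5-3 and 761 and 7376 for Krtap5-2 in OAD and YAD. Gm10153, which lies between these genes, differed by -3.73, with 0.58 FPKM in OAD, and shares 49.6% of its 50-base words with another annotated gene. The other members of the subfamily differed less, by -1.16 for Krtap5-5 (107 FPKM in OAD and 242 in YAD), -0.65 for Krtap5-4 and -0.57 for Krtap5-1. The coding sequences of Krtap5-2 and Krtap5-3 are 75.2% identical to each other and 48.6% to 54.0% identical to those of the other 3 members. The gap between OAD and YAD was thus far wider for this pair than for the rest of the subfamily, and both were still higher in OAD than in OTD, by 4.19 and 1.72.

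Single-member subfamilies outside chromosomes 11 and 16 were lower in OAD too. Krtap10-4 had 216 FPKM in OAD and 403 in YAD, Krtap12-1 232 and 354, and Krtap28-13, on chromosome 1, 259 and 479. On chromosome 10 the 8 detected genes with other symbols between Krtap12-1 and Krtap10-4 were all lower in OAD as well, with a median of -0.99. They share 22.9% to 85.4% of their 50-base words with another annotated gene, so they are no independent measurement either. At the end of the chromosome 11 cluster Krtap31-2 had 23.1 FPKM in OAD and 82.9 in YAD, Krtap9-5 6.22 and 25.1, and Krtap16-1 153 and 226. Krtap9-5 lies apart from the other Krtap9 members, and its direction was that of its neighbours and not that of Krtap9-1 and Krtap9-3. Krtap31-1 differed by -0.46 and Krtap31-2 by -1.80, and as their coding sequences are nearly the same, their sum (-1.06) is the firmer value.

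On chromosome 16 the differences were small. Of 25 members, 17 were higher and 8 lower in OAD, with a median of 0.12, and Krtap20-2 alone was called, by 1.64. Krtap6-1 had 2878 FPKM in OAD and 1602 in YAD, a difference of 0.85, and Krtap6-5 differed by 0.86. Krtap19 was mixed, from Krtap19-4 at -0.77 to Krtap19-9b at 0.70, with its sum at 0.11. Krtap8-1, Krtap22-2 and Krtap15 were higher in OAD by 0.43, 0.51 and 0.43, and Krtap7-1, Krtap11-1 and Krtap13-1 by 0.12, 0.08 and 0.05. In TPM the sums of Krtap7, Krtap11, Krtap13, Krtap19 and Krtap27 turned to lower in OAD, so that no direction can be given for these.

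Within composition classes the directions in anagen were mixed. Of the 16 ultrahigh sulphur members, 10 were called higher and 2 called lower in OAD, with a median of 1.12. The 21 high sulphur members had a median of 0.12, with 14 higher and 7 lower, and the 15 high glycine-tyrosine members a median of 0.34, with 10 higher and 5 lower. The 3 members that met both criteria were all lower in OAD, with differences of -0.89 for Krtap28-13, -3.31 for Krtap5-2 and -4.18 for Krtap5-3. Ultrahigh sulphur members thus stood on both sides, those of Krtap4 on chromosome 11 higher and Krtap5-1, Krtap5-4 and Krtap5-5 on chromosome 7 lower. These classes overlap with chromosome and subfamily, so that class and position cannot be told apart for most members.

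**Figure D4:**
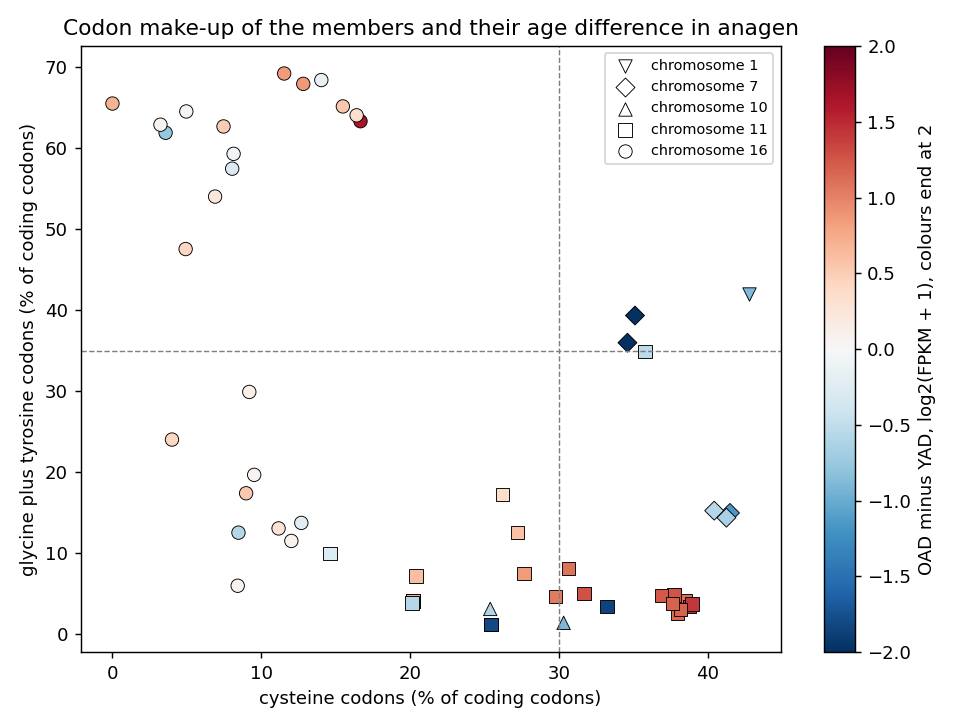
Share of cysteine codons (horizontal axis, %) and of glycine plus tyrosine codons (vertical axis, %) in the coding sequence of 55 members, with marker shape giving the chromosome and colour the OAD minus YAD difference of log2(FPKM + 1), colours ending at 2 in size. Dashed lines mark the class limits of 30% and 35%. The squares of Krtap4 at the lower right are red, the diamonds of Krtap5 are blue, and most circles of chromosome 16 are pale.

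By sign alone, directions with age differed between the phases for many members. In telogen and anagen together, 26 members were lower in OTD and higher in OAD, 16 were lower in the old library of both phases, 7 higher in both, and 3 higher in OTD and lower in OAD. The 4 remaining members were equal in telogen. These counts set no limit on size, and the same counts over all genes were not made. In telogen the 26 ran from -0.02 for Krtap6-5 to -1.71 for Krtap13-1. In TPM without mitochondrial genes 7 members changed direction in telogen, and in TPM 5 did so in anagen. Among the 16 that were lower in both phases were Krtap12-1, Krtap10-4, Krtap17-1, Krtap28-13, Krtap5-2 and Krtap5-3.

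Core promoters of the members were examined because nearly all members were higher in anagen. RefSeq promoters on GRCm38.p6, 250 bases before to 50 after the start, were matched for 51 of 56 members. The motif TATAAA, on either strand, was in 42 of 51 (82.4%), against 13.6% of all 32851 promoters, and it began 20 to 40 bases before the start on the gene's strand in 31 of 51 (60.8%), against 1.99%. Words known for HOXC13, a homeobox factor of the hair matrix, are TTAAT or TTTAT, then any base, then AA, AG, GA or GG, and 26 of 51 promoters (51.0%) held one of these on either strand, against 18.9% of all. Some overlap TATAAA, and leaving such overlaps out gave 24 of 51 (47.1%), against 16.03%. The TCF/LEF word CTTTGAT was in 4 of 51 (7.84%), against 3.73%. On chromosome 11, 20 of 21 promoters held TATAAA, and on chromosome 16, 16 of 23. A match describes the letters and is not evidence of binding.

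The 60 bases before the start are shown for the highest member and for members of the chromosome 11 and chromosome 7 clusters, from 5′ to 3′ on the gene's strand, with TATAAA in capitals where present. Their positions on GRCm38.p6 are chr16:89487953-89488012 (minus strand) for Krtap8-1, chr11:99635085-99635144 (minus strand) for Krtap4-2, chr7:142176006-142176065 (minus strand) for Krtap5-2 and chr7:142201304-142201363 (plus strand) for Krtap5-3.
Krtap8-1: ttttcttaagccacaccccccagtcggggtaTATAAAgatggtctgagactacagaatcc
Krtap4-2: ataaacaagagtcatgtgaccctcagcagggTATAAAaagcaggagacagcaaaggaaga
Krtap5-2: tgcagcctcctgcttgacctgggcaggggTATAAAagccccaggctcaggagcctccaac
Krtap5-3: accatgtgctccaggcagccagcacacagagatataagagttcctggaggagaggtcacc
Of these, Krtap5-3 has no TATAAA in its window, and Krtap5-2, which was lower in OAD too, has one. The Krtap5-3 window holds tataag, which differs in the last letter and was not counted as a match.

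Other genes of the hair follicle give the setting of these values. The hair shaft keratins, which form the filaments that Krtap proteins surround, were lower in OTD in 15 of 15, with a median of -1.06, and in OAD in 11 of 15, with a median of -0.27. Their highest members were Krt83, with 3.09 FPKM in OTD and 13.5 in YTD against 1724 in OAD and 2011 in YAD, and Krt33a, with 5.47, 16.7, 1839 and 1844. The summed Krtap FPKM was 11.3 times the summed hair shaft keratin FPKM in OTD, 6.96 times in YTD, 7.52 times in OAD and 5.33 times in YAD. Krtap4 stood at 0.554 of the hair shaft keratin sum in OAD and 0.218 in YAD, and Krtap5 at 0.0246 and 0.0654, so these subfamilies differed in opposite directions also relative to the keratins of the same library.

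Genes of the inner root sheath, the sleeve around the growing shaft, had a median of 0.54 in anagen, with 9 of 10 higher in OAD. Krt71 had 79.8 FPKM in OTD and 136 in YTD against 4503 in OAD and 3502 in YAD, and Tchh, the sheath and medulla protein trichohyalin, had 32.2, 51.8, 4477 and 2693. In telogen all 10 were lower in OTD, with a median of -0.67. The hair shaft keratin sum was 0.148 of the inner root sheath sum in OTD and 0.277 in YTD against 0.645 in OAD and 1.04 in YAD. The 10 regulators of the hair matrix and precortex had a median of -0.14 in anagen, with 3 higher and 7 lower, and -0.81 in telogen. Among them Dlx3 had 1.5 FPKM in OTD and 6.89 in YTD against 207 in OAD and 231 in YAD, and Hoxc13 had 2.00, 4.60, 122 and 144. The 10 hair hardening enzymes and partners had a median of 0.23 in anagen, 8 of them higher in OAD, and in TPM 5 were higher and 5 lower. S100a3, a calcium-binding protein of the hair cuticle, had 43.7, 136, 4415 and 4352 FPKM in the 4 libraries.

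Markers of other cell types also differed between the libraries. The 8 melanocyte genes were all lower in OAD, with a median of -0.81 and sums of 464 FPKM in OAD and 761 in YAD, and 4 were higher and 4 lower in OTD. Of their highest members, Mlana had 7.86, 7.05, 173 and 233 FPKM in OTD, YTD, OAD and YAD, and Pmel 1.60, 1.58, 90.5 and 186. The genes listed for the epidermis, led by Krt5 and Krt14, had a median of 0.26 in anagen, with 8 of 9 higher. In telogen their median was -0.27, with 3 higher and 6 lower. They were uneven in level and are not read here as markers of the epidermis alone. Krt1, Krt10 and Lor had at most 0.126, 3.78 and 6.94 FPKM in any library. Krtdap, Dsg1a, Ivl and Krt15 reached 28.2, 60.4, 136 and 156 FPKM in OAD. Krt5 had 19.2, 34.99, 618 and 469 FPKM, and Krt14 27.6, 34.3, 453 and 222. The 10 adipocyte genes, led by Fabp4 (2880, 1873, 1155 and 822 FPKM) and Adipoq (427, 280.5, 103 and 76.5), were higher in OAD in 10 of 10 as deposited, with a median of 0.25, but in 5 of 10 in TPM. In telogen their median was 0.03, and they were detected in all 4 libraries. All 10 were lower in anagen than in telogen at both ages. The medians were -1.51 in young mice, with 10 called lower, and -1.34 in old mice, with 8 called lower. Skeletal muscle genes were all lower in OTD, with a median of -0.67, and summed to 56141 FPKM in OTD and 87810 in YTD against 13209 in OAD and 9936 in YAD, led by Acta1 (17991, 27442, 4106 and 2919) and Ckm (7920, 12413, 1988 and 1400). All 10 muscle genes were called lower in anagen than in telogen at both ages, with medians of -3.18 in young and -2.06 in old mice. Whether these differences in markers of other cells bear on the Krtap values was not tested.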

How the data were processed

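dWAT RNA of 4 groups, 1 library each, was sequenced on an Illumina platform, and the submitters' processing notes name bcl2fastq, TopHat2 and the build GRCm38. The authors deposited FPKM for 22913 genes, with a position and a length for each. The counting tool, annotation, strand setting and scaling are not given in the sources used here. Of the identifiers, 21750 matched a symbol, and 56 of the 58 Krtap genes of the mouse gene table were among them. Read counts were not used here, so no count test was run. Depth was estimated from the lowest products of FPKM and length in features of 2000 to 4000 bases, which gave 21400000 fragments for OTD, 20400000 for YTD, 23100000 for OAD and 21800000 for YAD. These are rough, and the floor of 3 fragments covers counting error only.

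FPKM were used as deposited, with a pseudocount of 1, members over 0 in a compared library, and a threshold of 1. The members and lists were chosen with earlier results of these data known. Protein sequences planned for the classes were not used here, so codon shares of GENCODE coding sequences took their place. Promoters came from RefSeq, and Krtap1-3, Krtap7-1, Krtap9-1, Krtap12-1 and Krtap19-9a had none matched. Genes named are the member with the highest mean FPKM of each subfamily, the 10 highest members in anagen, the 5 members with the largest positive and the 5 with the largest negative difference in each age comparison among those with at least 1 FPKM, and the 2 highest genes of each list. Others were chosen after their values were seen, among them Krtap1-3, Krtap3-2, Krtap3-3, Krtap5-1, Krtap5-4, Krtap13, Krtap4-6, Krtap4-13, Krtap19-9a and the Gm genes.

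Alternatives were pseudocounts of 0.1 and 0.01, a filter at 1 FPKM, rescaling with a median of ratios (11181 genes), to TPM, and to TPM without mitochondrial genes or without hair keratin and Krtap genes, a threshold of 1.5, and means over members in place of sums. Limits to members of at least 300 bases or with under 10% shared 50-base words were added after the data were seen. On simulated libraries of 22913 genes, all 200 changed genes were recovered in each comparison, with 2 unchanged genes called in OAD against YAD and 3 in each of the others. The changed genes lay above a minimum FPKM, their changes exceeded the threshold, and the noise was that of counting alone. Their recovery was therefore built in, and these numbers give no error rate for the calls made here. Python 3.11.15, numpy 2.4.6, pandas 2.3.3, scipy 1.17.1, biopython 1.88 and matplotlib 3.10.9 were used.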

Additional observations from a re-analysis of the deposited data

Results flagged for a closer look

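For 9 subfamily sums the old library was lower than the young one in telogen and higher in anagen, with at least 1 between the differences on the log2 scale. The anagen minus the telogen difference was 1.76 for Krtap13, 1.70 for Krtap7, 1.63 for Krtap4, 1.55 for Krtap8, 1.34 for Krtap11, 1.23 for Krtap3, 1.11 for Krtap14, 1.10 for Krtap22 and 1.10 for Krtap15. With 1 library per group this difference between phases was not tested. Relative to the hair shaft keratin sum, Krtap3, Krtap4, Krtap8, Krtap11, Krtap14, Krtap15 and Krtap22 were higher in the old library of both phases. For Krtap4 this ratio was 0.416 (old) against 0.182 (young) among telogen libraries, and 0.554 against 0.218 among anagen libraries. By the same ratio Krtap13 and Krtap7 stayed lower with age in telogen and higher in anagen, Krtap7 at 1.116 against 1.118 in telogen. In TPM the anagen sums of Krtap7, Krtap11 and Krtap13 turned to lower in OAD, so for these 3 the directions were then the same in both phases.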

How the results depend on the processing

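Rescaling by the median of ratios changed no count of called members or subfamilies, and 1 member turned to higher in OTD. The median difference between YAD and YTD was 7.0 with a pseudocount of 0.1, 7.08 with 0.01, 7.17 in TPM and 7.35 in TPM without hair keratin and Krtap genes, and that between OAD and OTD was 8.26 in the last. The median of expressed genes in these phase comparisons was 0.76 and 0.58 in TPM, against 0.03 and 0.05 as deposited. Between OTD and YTD, 16 members were called with a pseudocount of 0.1 and 17 with 0.01, 2 of them higher in each case. Shares over all genes were computed only as deposited, with a pseudocount of 1 and a threshold of 1. The counts under other settings therefore have no such share beside them. At a threshold of 1.5, 7 members and 5 subfamilies were called between OTD and YTD, and 5 members (1 higher, 4 lower) and 2 subfamilies between OAD and YAD. Among the 22 members with under 10% shared words, in 17 subfamilies, 22 members and 17 subfamilies were called in each phase comparison, 7 and 5 between OTD and YTD, and 3 (2 higher, 1 lower) and 2 between OAD and YAD, fewer members being compared. Krtap9 is then Krtap9-5 alone, and its difference between OAD and YAD turned from 0.68 for the sum to -1.85, called lower. As a mean over its members Krtap9 stood at -0.03. In TPM without mitochondrial genes 8 members were called higher and 7 lower in OAD, and without hair keratin and Krtap genes 6 and 7. Without mitochondrial genes the Krtap share was 0.0718% in OTD and 0.115% in YTD.

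No paired analysis was possible because each group has 1 library, and leaving out a library was not run for the same reason. Depth limits the telogen values most, where 7 members in OTD and 6 in YTD were under the floor of 3 fragments.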
